A study of Mus musculus with 6 samples.

Results

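Heterotrimeric G proteins of the Gs, Gq and G12 classes carry their specificity in the alpha subunit, and 6 mouse genes for such subunits were read here in the brain without its cerebellum. They are Gnas and Gnal of the Gs class, Gnaq and Gna11 of the Gq class, and Gna12 and Gna13 of the G12 class. Every probe set annotated to exactly 1 of these gene symbols was taken, which gave 29 of the 45037 probe sets tested. Within the 6 genes no probe set was selected by its value, though the genes themselves were chosen with earlier results of these data known. In the RefSeq gene table of assembly GRCm38.p6 the members lie on chromosomes 2 (Gnas), 18 (Gnal), 19 (Gnaq), 10 (Gna11), 5 (Gna12) and 11 (Gna13), none of them with Gnb5 on chromosome 9.

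The series compared 3 arrays from Gb5-deficient mice (knockout replicates 1 to 3) with 3 from wild-type mice (wild-type replicates 4 to 6), as littermates matched for age and sex. Gb5 is the G protein beta subunit encoded by Gnb5. How the deletion was made, the strain, the age and each animal's sex are not given in the sources used here. The design text calls the samples biological replicates, and pooling is not mentioned.

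An alpha subunit binds GDP at rest, exchanges it for GTP when a receptor is activated, and signals until it hydrolyses the GTP. RGS proteins speed that hydrolysis. Gb5 forms obligate dimers with RGS proteins of the R7 family, which act on the Gi and Go class, and the 6 genes described here encode classes outside the usual substrates of the R7 complexes. Gs and Golf, the product of Gnal, stimulate adenylyl cyclase, Gq and G11 stimulate phospholipase C beta, and G12 and G13 activate exchange factors that carry an RGS domain.

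The targeted gene followed the labels. Gnb5 read 3.67, 3.00 and 3.56 in the knockout arrays and 8.79, 8.98 and 9.30 in the wild-type arrays on the deposited log2 scale (limma adjusted p = 4.48e-06 over all probe sets; exact permutation p = 0.1, two-sided, the smallest that 3 against 3 arrays can give). Neuronal markers averaged 12.39 to 12.51 in knockout arrays and 12.51 to 12.54 in wild-type arrays, so the knockout averages were all lower, by a narrow margin. Of the 5 markers 3 had negative differences and 0 passed. Snap25 (-0.33 ± 0.105), Stmn2 (0.17 ± 0.104) and Eno2 (-0.14 ± 0.109) had the smallest p. At an unadjusted p under 0.05, 1 was lower and 0 higher, beside 5.68% and 9.89% of all genes. The 7 measured cerebellar markers, several of which other brain regions also express, averaged 8.21 to 8.43 in knockout arrays and 8.13 to 8.27 in wild-type arrays, and 0 of 7 passed. Gabra6, a marker of cerebellar granule cells, was dim in all arrays (2.80 to 3.54). Pcp2, a Purkinje cell marker, lay between 8.51 and 8.73. Zic1 and Cbln1, at -0.31 ± 0.122 and 0.31 ± 0.141, and Cbln3, at 0.42 ± 0.198, had the smallest p. Knockout replicate 1 was the highest array for Cbln1 (11.30) and Cbln3 (4.96). Some arrays stood apart in genes of other tissues or of sex. The pituitary hormone gene Gh read 10.62 in knockout replicate 3 and 6.21 in wild-type replicate 6, against at most 5.08 elsewhere. Xist, expressed from the inactive X chromosome, was 10.65, 8.31 and 10.62 across the knockouts and 4.96, 10.81 and 10.70 across the wild types. The Y-linked Eif2s3y was 2.96, 11.28 and 6.97 across the knockouts and 11.26, 6.05 and 4.05 across the wild types. Xist was thus lowest in wild-type replicate 4 and next lowest in knockout replicate 2, the arrays with the highest Eif2s3y, and Eif2s3y was intermediate in knockout replicate 3 and wild-type replicate 5. The labels describe sex-matched cohorts, but these arrays differ in sex-linked transcripts within each genotype. Here n counts arrays, and p-values measure the spread between these samples. Whether an array pools animals was not tested.

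None of the 29 probe sets for the 6 alpha subunits passed the test between genotypes. Differences are on the log2 scale, positive where knockouts were higher, and ran from -0.25 to 0.50 with a median of 0.04, beside a median of 0.03 over all probe sets. In limma, 0 of 29 had a Benjamini-Hochberg adjusted p under 0.05, where 0.0266% of all probe sets did, and the lowest adjusted p among members was 0.276. At an unadjusted p under 0.05 there were 3 of 29 (10.3%), against 14.4% of all probe sets. All 3 were higher in knockouts and 0 lower, where 8.09% of all probe sets were higher and 6.33% lower. All arrays of 1 genotype lay above those of the other at 4 of 29 (13.8%), against 21.5% of all probe sets, with knockouts above at 3 (12.5% of all probe sets) and below at 1 (8.95%). The knockout mean was the lower one at 10 of 29 (34.5%), against 44.5%. The members thus held no larger share of small p-values or separated groups than the table as a whole. The median standard error was 0.125 over the members and 0.123 over all probe sets. For the brightest probe sets of the 6 genes, the lowest limit of a 95% interval was -0.60 (Gnal) and the highest 0.46 (Gna11). Each gene had a narrower interval of its own, such as -0.25 to 0.21 for Gnaq. These intervals belong to 1 probe set per gene. For Gna13 the brightest gave -0.49 to 0.05, while 1453470_a_at gave 0.09 to 0.91. Differences outside an interval are less compatible with that probe set's values, but are not excluded.

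**Figure D1:**
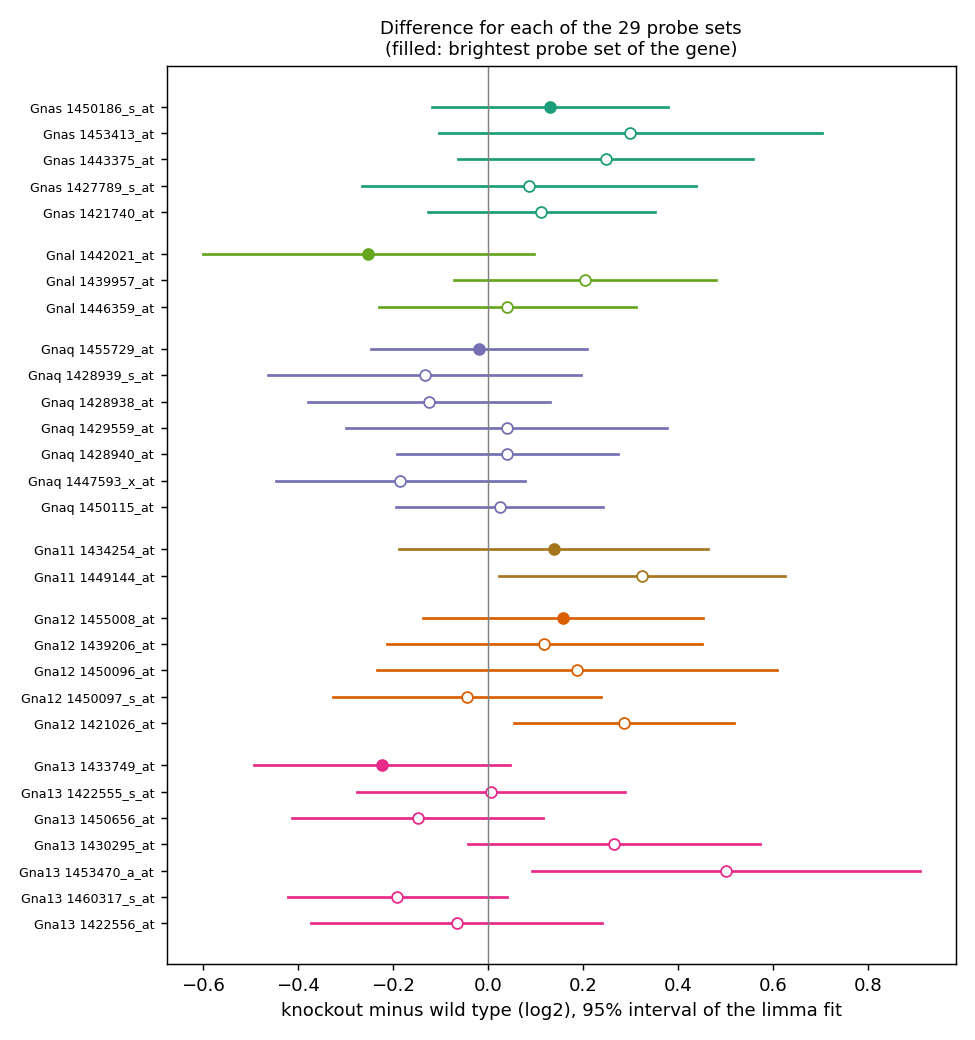
Difference between genotypes (log2, x axis, positive where knockouts were higher) for each of the 29 probe sets, with the 95% interval of the limma fit and the brightest probe set of each gene filled. Intervals exclude 0 at 3 probe sets, of Gna11, Gna12 and Gna13, and 0 of 29 passed after adjustment.

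The levels show which probe sets carry signal. An RMA level depends on the probes as well as on the transcript, so percentiles among the 45037 probe sets of an array place each probe set without ranking 1 gene's transcript against another's. The brightest probe sets lay at mean percentiles of 99.4 for Gnas, 96.0 for Gnal, 94.9 for Gnaq, 91.2 for Gna13, 89.2 for Gna11 and 64.7 for Gna12. Gna12 was the member whose best probe set was nearest the middle of the array, and 4 of its 5 probe sets lay below the 50th percentile. Within a gene, probe sets spanned from 0.80 log2 units for the pair of Gna11 to 9.78 for the 5 of Gnas. Of the 29, 10 lay below the 50th percentile and 6 below the 25th, where no detection calls were used here to tell signal from background.

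**Figure D2:**
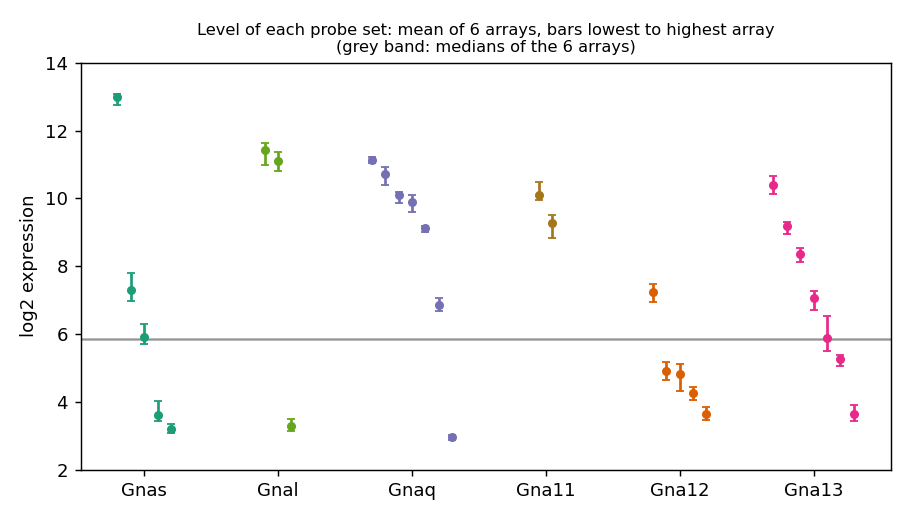
Level of each probe set on the deposited log2 scale (y axis), grouped by gene, as the mean of 6 arrays with bars from the lowest to the highest array. The grey band marks the array medians, between 5.81 and 5.85. Gnas spans 3.21 to 12.99, and Gna12 has a single probe set above the band.

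Gnas encodes the alpha subunit of Gs, the stimulator of adenylyl cyclase found in nearly all cells, from an imprinted locus that also makes other proteins from alternative first exons. Its brightest probe set, 1450186_s_at, read 13.02, 13.08 and 13.07 in knockout arrays and 12.75, 13.05 and 12.97 in wild-type arrays. Wild-type replicate 4 was the low array, and the groups overlapped. The means were 13.06 ± 0.0324 (SD, n = 3) and 12.93 ± 0.155 (SD, n = 3), a difference of 0.13 ± 0.11 (SE; 95% interval -0.12 to 0.38) with a limma adjusted p of 0.604. Without wild-type replicate 4 the difference was 0.04.

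All 5 Gnas probe sets had a higher mean in knockouts, by 0.09 to 0.30, and 0 of 5 passed (adjusted p of at least 0.434). Probe set 1453413_at read 7.81, 7.43 and 7.09 in knockout arrays and 7.31, 6.98 and 7.14 in wild-type arrays. Its difference of 0.30 (-0.10 to 0.70) was the largest for Gnas. Knockout replicate 1 was the highest array there, the groups overlapped, and without that array the difference was 0.12. Probe set 1443375_at, near the middle of the array at 5.91, differed by 0.25 (-0.06 to 0.56), and by 0.12 without knockout replicate 2. The remaining 2, 1427789_s_at and 1421740_at, lay at percentiles 22.5 and 15.3 and differed by 0.09 and 0.11. The sign of 1427789_s_at turned without knockout replicate 1, to a difference of -0.09. The 5 read the same RNA samples, so the shared sign is not 5 independent observations.

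Gnas is also strongly expressed in endocrine cells, and knockout replicate 3 and wild-type replicate 6 were the arrays with high Gh. The 7 measured pituitary markers averaged 4.83, 4.28 and 6.90 in knockout arrays and 4.26 to 4.99 in wild-type arrays. A positive difference was found for 7 of 7, with 0 of 7 passing. Without the 2 arrays of high Gh the brightest Gnas probe set differed by 0.15, 1453413_at by 0.48, 1443375_at by 0.42, 1427789_s_at by 0.22 and 1421740_at by 0.13. The part of pituitary tissue in the Gnas values was not tested.

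Gnal encodes Golf, the Gs-class subunit of olfactory sensory neurons that also couples dopamine and adenosine receptors to adenylyl cyclase in the striatum. Its 2 bright probe sets gave differences of opposite sign. The brightest, 1442021_at, read 10.998, 11.30 and 11.64 in knockout arrays and 11.59, 11.59 and 11.50 in wild-type arrays. Knockout replicate 1 was the lowest array and knockout replicate 3 the highest of all 6, so the groups overlapped.

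The means of that probe set, 11.31 ± 0.32 (SD, n = 3) and 11.56 ± 0.0517 (SD, n = 3), differed by -0.25 ± 0.154 (SE; -0.60 to 0.10), with a limma adjusted p of 0.475. Of the 6 brightest probe sets this was the most negative difference. Without knockout replicate 1 it was -0.09, and without knockout replicate 3 it was -0.41, and neither passed.

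The other bright Gnal probe set, 1439957_at, read 11.07, 11.14 and 11.37 in knockout arrays and 10.82, 11.07 and 11.08 in wild-type arrays. Knockout replicate 3 was again the highest array, but replicate 1 was not low. The difference was 0.21 (-0.07 to 0.48; adjusted p = 0.463), and the groups overlapped. The third, 1446359_at, lay at percentile 16.9 and differed by 0.04.

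The gap between the 2 bright Gnal probe sets can be tested within arrays. Subtracting the brightest from the other left -0.12 in knockout arrays and -0.57 in wild-type arrays, a change of 0.46 ± 0.149 (SE; 0.12 to 0.79). In the limma fit of all 16752 such pairs in the table, where 0.0597% of pairs passed, its adjusted p was 0.238 at an unadjusted p of 0.0132. Over the 6 arrays the 2 probe sets had a Pearson r of 0.04, as a description of arrays that share their processing.

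Striatal projection neuron markers were read beside Gnal. The 10 measured genes averaged 9.57 to 9.67 in knockout arrays and 9.50 to 9.59 in wild-type arrays, and 8 of 10 had a positive difference. At an unadjusted p under 0.05, 2 were higher (Drd2 and Rgs9) and 1 was lower, beside 9.89% and 5.68% of all genes. After adjustment 0 of 10 passed. The lower one was Pde10a, a striatal phosphodiesterase, at 9.10, 9.64 and 9.51 in knockout arrays and 9.95, 9.83 and 9.82 in wild-type arrays. Pde10a was lowest in knockout replicate 1, the lowest array for Gnal probe set 1442021_at but not for 1439957_at. The average of the 10 markers was instead highest in that array, at 9.67. Drd1, the dopamine receptor that couples to Golf, read 9.35 to 9.56 in knockout arrays and 9.37 to 9.43 in wild-type arrays. Their part in the Gnal values was not tested. In tissue that mixes cell types, fewer cells of a type and less RNA per cell cannot be told apart.

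**Figure D3:**
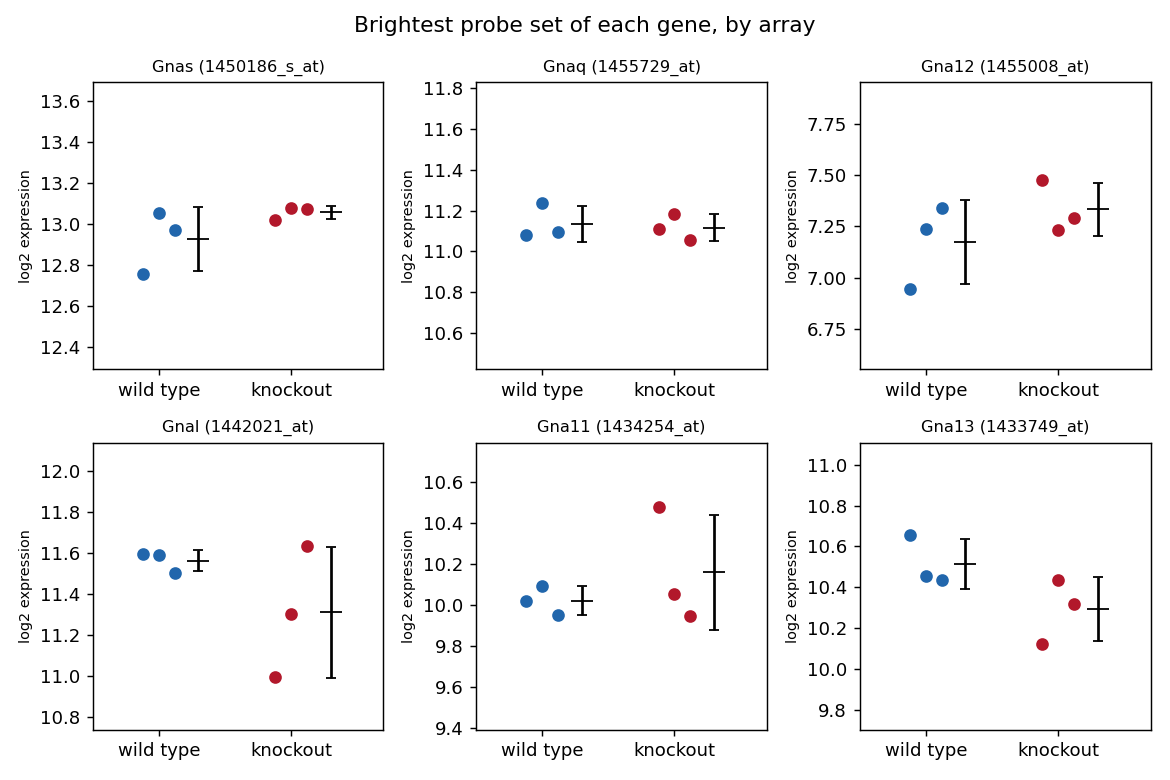
Deposited log2 expression (y axis) of the brightest probe set of each gene in the 3 wild-type arrays (blue) and 3 knockout arrays (red), with mean and SD in black, each panel spanning the same range of 1.4 log2 units. Groups overlap for all 6 genes, and knockout arrays spread most for Gnal (SD 0.32) and Gna11 (SD 0.282).

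Gnaq encodes Gq, which couples metabotropic glutamate, muscarinic and serotonin receptors to phospholipase C beta throughout the forebrain. It had the smallest difference among the brightest probe sets and the narrowest spread. Probe set 1455729_at read 11.11, 11.18 and 11.06 in knockout arrays and 11.08, 11.24 and 11.09 in wild-type arrays. Its 6 values lay within 0.18 log2 units of one another and interleaved.

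The difference for Gnaq was -0.02 ± 0.1 (SE; 95% interval -0.25 to 0.21), with a limma adjusted p of 0.949. The other 6 probe sets of Gnaq differed by -0.18 to 0.04, 3 of them negative and 3 positive, and 0 of 7 had an unadjusted p under 0.05. The most negative, 1447593_x_at, belongs to a class of probe sets that can cross-hybridise, as its suffix marks. It differed by -0.18 (-0.45 to 0.08). Of the 6, the 5 brighter ones had Pearson r values of 0.42 to 0.67 with the brightest over 6 arrays. The remaining one, 1450115_at, was at percentile 10.1 with an r of -0.26.

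Gna11 encodes G11, the close relative of Gq that shares its effectors. Both of its probe sets were bright and had higher means in knockouts. The brighter, 1434254_at, read 10.48, 10.05 and 9.95 in knockout arrays and 10.02, 10.09 and 9.95 in wild-type arrays. Knockout replicate 1 stood above the other 5 arrays, which read 9.95 to 10.09.

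Its difference was 0.14 ± 0.144 (SE; -0.19 to 0.46; limma adjusted p = 0.686). Without knockout replicate 1 it was -0.02. Probe set 1449144_at read 9.47, 9.38 and 9.50 in knockout arrays and 8.84, 9.29 and 9.24 in wild-type arrays. Here all 3 knockout arrays lay above all 3 wild-type arrays, with wild-type replicate 4 far below the others.

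That second probe set differed by 0.32 ± 0.133 (SE; 0.02 to 0.63), with an unadjusted limma p of 0.0378 and an adjusted p of 0.321. Without wild-type replicate 4 the difference was 0.18. The 2 Gna11 probe sets did not differ from each other beyond their error, at 0.19 (-0.23 to 0.60), and their r over 6 arrays was 0.32. The within-array gap between Gna11 and Gnaq, each by its brightest probe set, was -0.96 ± 0.284 (SD, n = 3) in knockout arrays and -1.11 ± 0.0487 (SD, n = 3) in wild-type arrays. Knockout replicates 2 and 3, at -1.13 and -1.11, lay among the wild-type values of -1.14 to -1.06, and knockout replicate 1, at -0.63, lay apart.

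Gna12 encodes G12, which signals to the actin cytoskeleton through exchange factors with an RGS domain. Probe set 1455008_at, the only one above the 50th percentile, read 7.48, 7.23 and 7.29 in knockout arrays and 6.95, 7.24 and 7.34 in wild-type arrays. Wild-type replicate 4 was the lowest array and knockout replicate 1 the highest, and the groups overlapped. The difference was 0.16 ± 0.13 (SE; -0.14 to 0.45; limma adjusted p = 0.596), and 0.04 without wild-type replicate 4.

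Of the other 4 Gna12 probe sets, 3 had positive differences and 1 a negative one, from -0.04 to 0.29. The dimmest, 1421026_at, had the smallest p of all 29 members. It read 3.64, 3.82 and 3.86 in knockout arrays and 3.52, 3.47 and 3.47 in wild-type arrays, and the groups did not overlap. The difference was 0.29 ± 0.102 (SE; 0.06 to 0.52), with an unadjusted limma p of 0.0204 and an adjusted p of 0.276. This probe set lay at percentile 22.8, and whether its level is above background was not tested. With the brightest Gna12 probe set over 6 arrays, 1439206_at had an r of 0.42, 1450096_at of -0.57, 1450097_s_at of -0.56 and 1421026_at of 0.20.

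Gna13 encodes G13, the close relative of G12, and its 7 probe sets divided in sign. The brightest, 1433749_at, read 10.13, 10.44 and 10.32 in knockout arrays and 10.66, 10.46 and 10.43 in wild-type arrays. Knockout replicate 1 was the lowest array and wild-type replicate 4 the highest. The groups overlapped narrowly, since knockout replicate 2 lay just above wild-type replicate 6.

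The difference for that probe set was -0.22 ± 0.119 (SE; 95% interval -0.49 to 0.05), with a limma adjusted p of 0.419. Without knockout replicate 1 it was -0.14. In all, 4 of the 7 were negative, among them 1450656_at at -0.15 (-0.41 to 0.12) and 1460317_s_at at -0.19 (-0.42 to 0.04). The latter read 5.27, 5.06 and 5.19 in knockout arrays and 5.39, 5.39 and 5.31 in wild-type arrays, and was the 1 member probe set with all knockout arrays below all wild-type arrays. Probe set 1422555_s_at, second in brightness, differed by 0.01.

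The probe set with the largest difference of all members also belonged to Gna13. Probe set 1453470_a_at read 6.54, 6.09 and 5.77 in knockout arrays and 5.49, 5.67 and 5.73 in wild-type arrays. All knockout arrays lay above all wild-type arrays, though narrowly, and knockout replicate 1 was the highest.

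Its difference was 0.50 ± 0.18 (SE; 0.09 to 0.91), 1.42-fold, with an unadjusted limma p of 0.0214 and an adjusted p of 0.279. Without knockout replicate 1 it was 0.30. Probe set 1430295_at, designed from the same source sequence in the platform annotation, differed by 0.27 (-0.04 to 0.57) and read 7.28, 7.23 and 7.09 in knockout arrays and 7.19, 6.70 and 6.91 in wild-type arrays. Without wild-type replicate 5 the 1430295_at difference was 0.15. The 2 thus had the same sign, opposite to that of the brightest. Probe sets 1422555_s_at, 1450656_at, 1460317_s_at and 1422556_at share another source sequence, and differed by 0.01, -0.15, -0.19 and -0.07. The sign of 1422555_s_at is not settled, since its interval was -0.28 to 0.29 and its sign changed in 8 of 15 alternatives.

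Measured within arrays against the brightest Gna13 probe set, 1453470_a_at changed by 0.72 ± 0.244 (SE; 0.17 to 1.27) and 1430295_at by 0.49 ± 0.152 (SE; 0.14 to 0.83). In the limma fit over pairs, the adjusted p values were 0.244 and 0.226, at unadjusted values of 0.0155 and 0.0105. With the Gnal pair these were the 3 of 23 member pairs at an unadjusted p under 0.05, beside 14.9% of all pairs, and 0 of 23 passed. Over 6 arrays, 1453470_a_at and the brightest had an r of -0.85, the most negative of the 23 pairs. Across the 23 the median r was 0.20 and 9 were below 0.

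**Figure D4:**
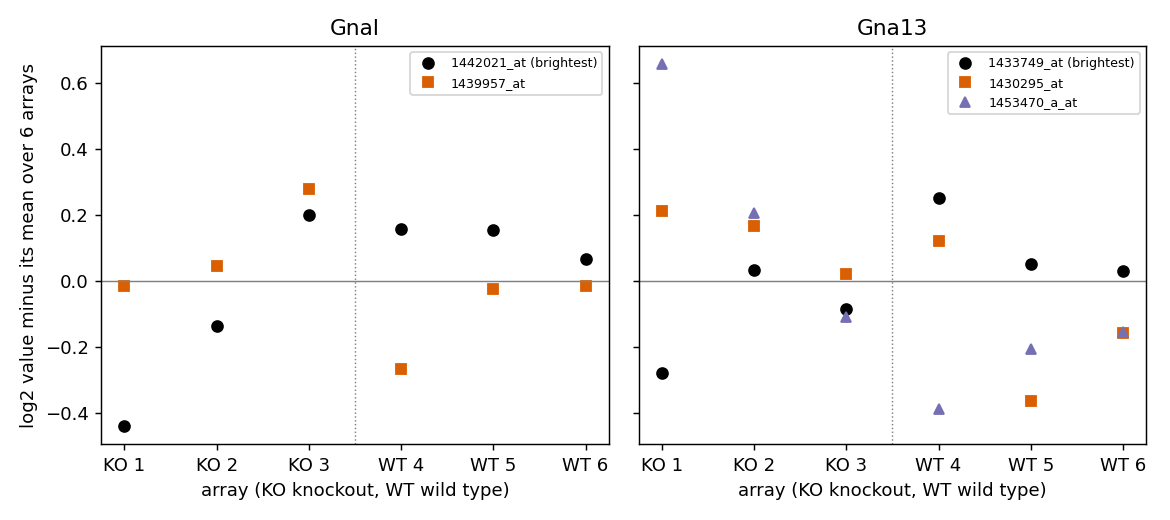
Deviation of each array's log2 value from the probe set's mean over 6 arrays (y axis), for Gnal and Gna13, showing the brightest probe set and those that differed from it at an unadjusted p under 0.05. In knockout replicate 1 the brightest probe sets lie lowest, at -0.44 and -0.28, while 1453470_a_at of Gna13 lies highest.

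Much of the variation among the brightest probe sets came from 2 arrays, 1 of each genotype. Knockout replicate 1 deviated from the mean of 6 arrays by -0.44 for Gnal, -0.28 for Gna13, 0.39 for Gna11 and 0.22 for Gna12. Wild-type replicate 4 deviated by 0.25 for Gna13, -0.31 for Gna12 and -0.24 for Gnas. Across the other 4 arrays these deviations lay between -0.14 and 0.20. Wild-type replicate 4 also had the lowest Xist (4.96) and high Eif2s3y (11.26), and knockout replicate 1 had the lowest Eif2s3y (2.96). Eif2s3y was as high in knockout replicate 2 (11.28), whose deviations lay between -0.14 and 0.09. It was also low in wild-type replicate 6 (4.05). The part of sex-linked transcripts in the member values was not tested.

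Over the 6 arrays the brightest probe sets of Gna12 and Gna13 had a Pearson r of -0.92, those of Gnal and Gna11 -0.88, and those of Gnas and Gna12 0.72. These describe 6 arrays that share normalization, and rest largely on those 2 arrays. Within arrays, Gna13 minus Gna12 was 2.65, 3.21 and 3.03 in knockout arrays and 3.71, 3.22 and 3.09 in wild-type arrays, and the groups overlapped through knockout replicate 2. Gnal minus Gnas was -2.02, -1.78 and -1.44 in knockout arrays and -1.16, -1.46 and -1.47 in wild-type arrays, and knockout replicate 3 lay among the wild types. These gaps are between different probe sets, so only their change between arrays can be read.

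**Figure D5:**
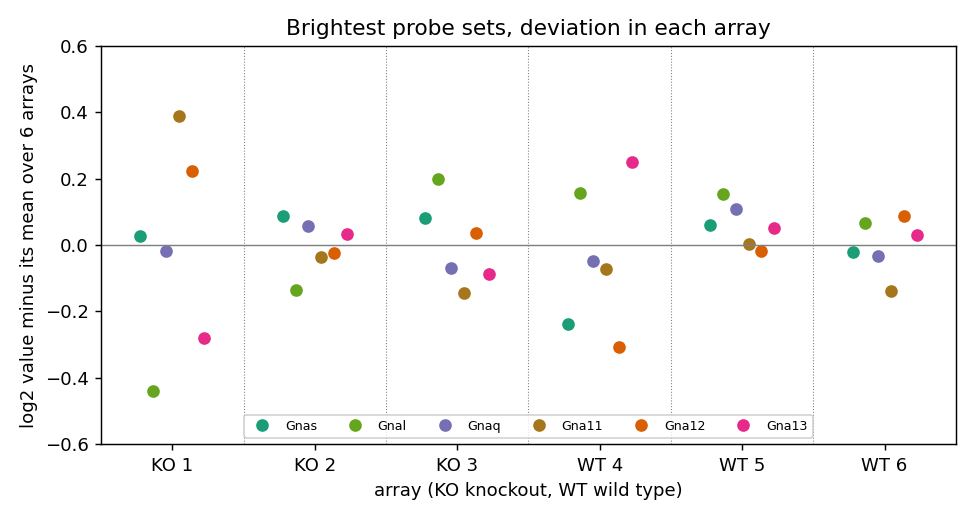
Deviation of the brightest probe set of each gene from its mean over 6 arrays (log2, y axis), by array. Knockout replicate 1 and wild-type replicate 4 hold the widest spread, from -0.44 to 0.39 and from -0.31 to 0.25.

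Genes with the most similar pattern to each member were sought among 19428 single-gene probe sets at or above the median level. By Pearson r over 6 arrays they were Efna1 (0.99) and Ttc3 (0.99) for Gnas, Nipa1 and Chmp1b for Gnal, and Golt1b and Syn3 for Gnaq. For Gna11 they were Serf1 and Fank1, for Gna12 2010204K13Rik and Ralgapb, and for Gna13 Ccdc43 and Sgpp1. With so many probe sets and 6 arrays, high values are common. Probe sets with an r above 0.95 numbered 12 for Gnaq and 280 for Gna13, with the other 4 members between.

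Partners of these alpha subunits were read through the brightest probe set of each gene. Outside Gnb5, 110 of 129 listed genes were measured and 0 passed in limma, beside 0.0220% of the brightest probe sets of all genes. At the unadjusted level, 13 had higher and 8 had lower values, beside 9.89% and 5.68% of all genes. Their median difference was 0.05, equal to that of all genes at this precision.

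On the Gs side, 0 of 9 adenylyl cyclases had an unadjusted p under 0.05, and 8 of 9 had positive differences around a median of 0.05. The smallest p belonged to Adcy4 at 0.33 ± 0.203, Adcy2 at 0.17 ± 0.117 and Adcy8 at 0.12 ± 0.127. Of 6 subunits of cAMP-dependent protein kinase 0 passed. The regulatory subunit genes Prkar1b and Prkar1a differed by 0.38 ± 0.121 and -0.28 ± 0.107 (limma adjusted p = 0.257 and 0.291), and Prkar2b by -0.16 ± 0.1. Ric8b, the chaperone for Gs-class subunits, read 8.82, 8.84 and 8.64 in knockout arrays and 8.33, 8.34 and 8.56 in wild-type arrays. The groups did not overlap, and its difference of 0.36 ± 0.112 did not pass (limma adjusted p = 0.254). Ric8a, the chaperone for the other classes, differed by 0.10 ± 0.0984. Of 17 measured Gs-coupled receptors 0 passed, with Htr4 at -0.38, Gpr6 at -0.24 and Pth1r at 0.35.

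On the Gq side, 0 of 11 phospholipase C beta enzymes and downstream genes had an unadjusted p under 0.05. Plcb4 differed by 0.18 ± 0.0945, Plcb1 by -0.18 ± 0.114 and Itpr3, a calcium release channel, by 0.31 ± 0.145. Of 21 measured Gq-coupled receptors 0 passed. At the unadjusted level of 0.05, 5 showed a higher and 1 a lower value, beside 9.89% and 5.68% of all genes. Of the 21, 7 lay below the 25th percentile, among them Chrm3 and Hcrtr2 (percentiles 18.1 and 18.4), which were counted as higher. Ntsr1, the neurotensin receptor, read 7.87, 7.73 and 7.85 in knockout arrays and 7.27, 7.52 and 7.36 in wild-type arrays, and the groups did not overlap (0.43 ± 0.107; limma adjusted p = 0.203). Oxtr and Hcrtr1 differed by 0.34 ± 0.124 and 0.39 ± 0.141. Among 13 measured genes for small RGS proteins and a GRK, many of which act on Gq, 0 passed. At the unadjusted level 1 was higher and 3 lower, beside the same shares of all genes. Rgs16 and Rgs5 differed by -0.85 ± 0.183 and -0.43 ± 0.135, and Rgs8 by 0.30 ± 0.112.

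On the G12 side, 0 of 6 measured genes for these exchange factors and downstream proteins passed. Rock1, a kinase that acts on the actin cytoskeleton, read 10.30, 10.35 and 10.54 in knockout arrays and 10.92, 10.77 and 10.76 in wild-type arrays. The groups did not overlap, and the difference of -0.42 ± 0.11 had a limma adjusted p of 0.216. Arhgef1, an exchange factor that binds G12 and G13, differed by 0.40 ± 0.152, and Akap13 by 0.15 ± 0.105. Of 8 measured receptors that also couple to this class, 0 had an unadjusted p under 0.05, with Lpar1 at -0.26, S1pr3 at -0.24 and Lpar2 at 0.24.

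The other alpha subunit genes also gave 0 calls. The 9 that were measured include the Gi and Go subunits that R7 complexes serve, and Gna14 and Gna15 of the Gq class, and had 18 probe sets. There, 4 of 18 (22.2%) had an unadjusted p under 0.05, against 14.4% of all probe sets, and differences ran from -0.56 to 0.47. Gnat1 (0.29 ± 0.105), Gnai1 (-0.22 ± 0.105) and Gnao1 (0.16 ± 0.109) had the smallest p by their brightest probe sets. That of Gnat1 was dim, at percentile 23.2. Whether the 2 sets of alpha subunits differ was not tested. Of the R7 complex genes, Rgs6 and Rgs9 differed by 0.48 ± 0.139 and 0.30 ± 0.11, and Gnb5 alone passed.

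Of the markers of other cell types, 0 passed after adjustment in any list, and their part in the member values was not tested. The counts below are at an unadjusted p under 0.05, where 9.89% of all genes were higher and 5.68% lower. Of 7 microglial markers 4 were higher and 0 lower, with the smallest p for Aif1, Csf1r and Cd68. The differences of 2 were negative, P2ry12 at -0.20 and C1qa at -0.08. The list averaged 8.11 to 8.26 in knockout arrays and 7.95 to 8.06 in wild-type arrays. Of 7 astrocyte markers 3 were lower (Gjb6, Gja1 and Slc1a3) and 1 higher, with averages of 10.70 to 10.90 and 10.90 to 11.07. Of 7 meningeal fibroblast markers 4 were lower, led by Lox, Col3a1 and Igf2, with averages of 7.96 to 8.06 and 8.29 to 8.39. Of 6 oligodendrocyte markers 1 was lower, Cldn11, and all 6 had negative differences. They averaged 10.60 to 11.08 in knockout arrays and 10.93 to 11.27 in wild-type arrays, with the lowest value in knockout replicate 1. Of 3 measured blood markers 1 was lower, Slc4a1 (-0.93 ± 0.175, limma adjusted p = 0.173), and all 3 had negative differences. Of 7 olfactory bulb markers 1 was lower, Eomes, and 5 had negative differences. Of 6 choroid plexus markers 1 was lower, Kl, and 5 had negative differences. Of 6 endothelial markers 0 were higher or lower, and 5 had negative differences.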

How the data were processed

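Biotin-labelled RNA of each sample was hybridised to 1 Affymetrix expression array, per the labels' protocols. The values used are the normalized log2 expression the authors deposited. RMA and Partek are credited to the submitters' processing notes, without versions. RMA compresses the folds of dim probe sets. From 45101 probe sets 64 controls were removed, with no filter and no further normalization. Genes came from the platform annotation, and 0 probe sets with several genes entered the members.

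Genotypes were compared in limma 3.58.1 (R 4.3.3) with lmFit and eBayes, two-sided, adjusting by Benjamini-Hochberg over 45037 probe sets at 0.05, with 4 residual and 5.05 prior degrees of freedom. The code was tested on simulated data. To compare probe sets of a gene, the brightest (highest mean over 6 arrays) was subtracted within each array, and 16752 such differences were fitted likewise. Precision is limited by the number of arrays.

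The members and all lists were chosen with earlier results of these data known. Every member probe set is named or counted. Lists contribute up to 3 genes by smallest p or counts alone, and each member the 2 genes most alike in pattern. Gnb5, Gh, Xist and Eif2s3y are given as checks. Gabra6, Pcp2, Drd1, Chrm3, Hcrtr2, P2ry12 and C1qa were named after their values were seen. Alternatives covered dim probe sets, normalization, eBayes settings, array weights, thresholds, a single probe set per gene and arrays left out. Plots used matplotlib 3.10.9.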

Additional observations from a re-analysis of the deposited data

How the results depend on the processing

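No member probe set passed under any of the alternatives run: of 431 member values, 0 were called. Signs were less stable, with 32 changes spread over 12 of the 29 probe sets, while 17 kept their sign throughout. The count of member probe sets at an unadjusted p under 0.05, 3 over all arrays, ran from 1 to 4 with 1 array left out (1 without knockout replicate 2). It was 1 with the 2 arrays of highest Eif2s3y removed, and 0 with 1 probe set per gene, where only 6 members were tested. The median member difference of 0.04 ran from 0.02 to 0.09 with 1 array left out, and was 0.11 without the 2 arrays of highest Gh, where the cause was not tested. Over all probe sets 12 were called, 9 to 12 with 1 array left out, 23 with trend and robust eBayes, 27 with array weights, 44 at an adjusted p under 0.1 and 4 when each gene had a single probe set and fewer tests were made. Pairs of probe sets that differed numbered 10, ran from 6 to 9 in the leave-one-out fits, the lowest without wild-type replicate 5, and were 4 without dim probe sets, where fewer were tested. Of the pathway genes Gnb5 alone passed in every setting, from -5.75 to -5.41 with 1 array left out. Renormalizing moved the median of all probe sets by at most -0.022. No paired analysis was possible because replicates 1 to 3 and 4 to 6 have no number in common. Detection calls were not used here, and signal at dim probe sets may be background.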
